A study of Mus musculus with 15 samples.

Results

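The glycerol phosphate pathway of triglyceride synthesis was followed at the RNA level through 10 mouse enzyme genes, Gpd1, Gpam, Gpat4, Agpat1, Agpat2, Agpat3, Lpin1, Lpin2, Dgat1 and Dgat2. They were named for the reactions their products carry out, from the making of glycerol phosphate to the last acylation. The rule uses no measured value, but the pathway was picked with earlier results of these data known. They were 10 of the 26301 gene numbers in the count files, and all 10 had enough reads to be tested in every comparison. The study asked what the histone H3K9 demethylase JMJD1A, encoded by Kdm3a, does for gene expression early in fat cell differentiation, and which of its effects need the iron bound at its catalytic site.

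All libraries came from 3T3-L1, a mouse preadipocyte line that turns into fat cells when stimulated, on day 2 after addition of 1.67 µM insulin, 1 µM dexamethasone and 115 µg/mL IBMX in high-glucose medium with fetal bovine serum. The knockdown set held control cells with the empty retroviral vector (sh-Empty) and JMJD1A-KD cells with a retrovirus for a short hairpin RNA against Jmjd1a (sh-Jmjd1a). The rescue set was made by infecting the JMJD1A-KD cells again, so LacZ, JMJD1A(WT) and JMJD1A(H1122A) cells all carried the sh-Jmjd1a hairpin. LacZ was the control construct, JMJD1A(WT) the wild-type protein from a coding sequence that resists the hairpin, and JMJD1A(H1122A) a protein with a defective iron-coordination site. Each of the 5 groups had 3 libraries. The lines were stable, selected by antibiotic, and expressed their constructs from a viral vector rather than from the Kdm3a locus. Nothing in the labels says that replicates came from separate cultures, so the p-values measure the spread between these libraries, which may be technical.

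Triglyceride is built on glycerol phosphate, which adipocytes make mainly from the glycolytic intermediate dihydroxyacetone phosphate through glycerol phosphate dehydrogenase (Gpd1). Acyltransferases of the GPAT family (Gpam, Gpat4) and the AGPAT family (Agpat1, Agpat2, Agpat3) add a fatty acid each to give phosphatidate, lipin phosphatases (Lpin1, Lpin2) remove its phosphate to give diacylglycerol, and the DGAT enzymes (Dgat1, Dgat2), which are not related in sequence, add the last fatty acid. Inherited loss of AGPAT2 in people causes congenital generalized lipodystrophy, and mice that lack lipin 1 also fail to form normal fat tissue.

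Total counts were 11437058 to 25523148 per library (median 12916162), and the highest was that of JMJD1A(WT) replicate 3. Levels are given as CPM, the counts scaled to the TMM-normalized library total. The knockdown and the rescue set were normalized apart, so CPM of groups in different sets are on separately set scales. Kdm3a itself had a mean CPM of 177 ± 7.31 in sh-Empty, 132 ± 5.77 in sh-Jmjd1a (SD, n = 3 each), and 119 ± 2.62, 1690 ± 69.0 and 2197 ± 92.2 CPM (SD, n = 3 each) with LacZ, JMJD1A(WT) and JMJD1A(H1122A). The targeted gene thus moved in the direction of its labels, but was only 1.34-fold lower with the hairpin, so most of its RNA remained. The 2 introduced constructs were not at the same level. All 6 adipocyte markers (Fabp4, Adipoq, Lpl, Plin1, Cidec, Cd36) were above 1 CPM in every group, and so were 6 of the 7 preadipocyte and fibroblast markers. Summed adipocyte markers were 4915 to 4990 CPM in sh-Empty, 2543 to 2673 in sh-Jmjd1a, 3214 to 3299 with LacZ, 3632 to 3976 with JMJD1A(WT) and 2503 to 2618 with JMJD1A(H1122A). Summed preadipocyte and fibroblast markers were 7594 to 7731, 12836 to 13534, 15694 to 15932, 16555 to 17246 and 15095 to 15878 CPM in the same order. Most of that sum was collagen, Col3a1 at 4785 to 11814 and Col1a1 at 1140 to 3945 CPM per library. Pdgfra (646 to 808 CPM) and Pdgfrb (74.1 to 107) spanned narrower folds, and Dlk1 was 376 to 887 and Thy1 84.5 to 189 CPM. Macrophage, endothelial and epithelial markers summed to 4.05 CPM at most in any library. The 3 muscle markers summed to 14.2 to 16.5 CPM with JMJD1A(WT) and to at most 5.10 elsewhere, all of it from Des, with Myod1 and Myog at 0. Most of the adipocyte sum was Lpl, at 2300 to 3988 CPM per library, and the other markers spanned wider folds. Adipoq had mean levels of 53.1, 5.21, 8.64, 21.2 and 3.60 CPM in the order of groups just used, Plin1 179.8, 34.9, 48.3, 68.5 and 21.5 CPM, Cidec 167, 28.0, 29.4, 77.9 and 16.1 CPM, and Fabp4 560.0, 153, 193, 461 and 88.9 CPM. Cd36 was 53.0, 34.7, 66.5, 93.4 and 31.8 CPM. Within each set, markers of adipocytes thus moved in the same directions as Gpd1, Agpat2, Lpin1, Dgat1 and Dgat2 below, some of them further than the sum. Cd36, unlike these enzymes, had a higher CPM with LacZ and JMJD1A(WT) than in sh-Empty cells, but these scales were set separately and no test was made. The part of the markers in the enzymes' values was not tested. In bulk RNA, fewer cells of a type and less RNA per cell cannot be told apart.

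Many transcription factors bind just before the start of a gene, so the 250 bases there are shown for 4 members, 1 pair of isoforms at each of the 2 steps where the ratios given further on differed the most on knockdown and both isoforms had a sequence. Windows were taken from RefSeq on GRCm38.p6, which covered 6 of the 10 genes with 10 windows, and the first listed is shown where a gene had several. Each reads 5′ to 3′ along the gene, and capitals mark a match to a motif searched for: the GC box (GGGCGG), the CCAAT box (CCAAT) or the E-box (CACGTG), on either strand.

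Agpat2, chr2:26604418-26604667, minus strand: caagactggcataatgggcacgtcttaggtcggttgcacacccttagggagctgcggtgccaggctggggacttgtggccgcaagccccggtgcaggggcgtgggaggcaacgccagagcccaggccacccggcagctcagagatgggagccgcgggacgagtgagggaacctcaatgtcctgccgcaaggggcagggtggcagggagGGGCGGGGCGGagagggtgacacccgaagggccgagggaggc
Agpat1, chr17:34605611-34605860, plus strand: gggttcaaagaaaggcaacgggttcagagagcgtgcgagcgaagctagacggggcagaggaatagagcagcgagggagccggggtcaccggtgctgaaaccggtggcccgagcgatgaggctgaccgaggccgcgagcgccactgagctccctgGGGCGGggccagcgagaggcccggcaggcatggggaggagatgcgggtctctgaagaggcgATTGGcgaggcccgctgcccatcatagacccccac
Lpin1, chr12:16610967-16611216, minus strand: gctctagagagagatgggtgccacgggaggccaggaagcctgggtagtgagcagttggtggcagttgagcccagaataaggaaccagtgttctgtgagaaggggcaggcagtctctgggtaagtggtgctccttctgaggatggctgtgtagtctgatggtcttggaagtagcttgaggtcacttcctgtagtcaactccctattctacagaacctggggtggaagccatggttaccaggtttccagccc
Lpin2, chr17:71183282-71183531, plus strand: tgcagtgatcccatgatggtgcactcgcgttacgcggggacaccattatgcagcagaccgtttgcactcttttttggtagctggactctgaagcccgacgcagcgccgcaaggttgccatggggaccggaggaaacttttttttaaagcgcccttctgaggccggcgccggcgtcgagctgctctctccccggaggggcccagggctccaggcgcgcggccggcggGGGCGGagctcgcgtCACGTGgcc

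The Agpat2 and Agpat1 windows shown were alike in base content, with 69.2% and 67.6% G or C and 16 and 22 CpG sites. The Lpin1 and Lpin2 windows shown were not, with 54.8% and 65.2% G or C and 1 and 26 CpG sites, where the median over all 32851 windows was 52.4% and 6. Windows not shown differed from these. The other Agpat1 window had 54.4% G or C and 3 CpG sites, and the other Lpin2 windows 83.2% and 50, and 44.8% and 3. Neither the likeness nor the contrast thus holds for every window of these genes. Agpat2 held 2 GC boxes that share 1 base, the first starting 42 bases before the start of the gene. Agpat1 held 1 GC box and 1 reversed CCAAT box, Lpin2 an E-box and a GC box, and Lpin1 none of the motifs. On knockdown the log2 ratio of Agpat2 to Agpat1 and that to Agpat3 each differed by -1.93, and only Agpat1 is shown. The Agpat3 window had 59.6% G or C, 14 CpG sites and none of the motifs. Over all 10 windows of members, 6 held a GC box (32.7% of all windows did), 3 a CCAAT box (33.8%), 1 an E-box (6.02%) and 0 a TATAAA (12.4%). These windows come from 6 genes, some with several, so they are not independent and no enrichment is read from them. The sites bound by PPARγ with RXR (DR1, AGGTCANAGGTCA, in 0.0335% of all windows), by LXR with RXR (DR4, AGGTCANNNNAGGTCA, 0.0152%) and by C/EBP proteins (TTGCGCAA, 0.164%) were each found in 0 of the 10 in these exact letters. A match is a string of letters and not a bound site.

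Levels were first set side by side per kb of the longest protein-coding transcript, the scale on which genes can be compared with each other. In sh-Empty cells Dgat1 was the highest of the 10, at 77.4 ± 1.5 CPM per kb (SD, n = 3), followed by Agpat2 at 63.3 ± 3.49. Gpat4 at 55.4 and Agpat1 at 54.7 CPM per kb overlapped between libraries and cannot be ordered. Below them came Dgat2 at 40.6, Lpin1 at 19.4, Agpat3 at 13.7 and Gpam at 9.42 CPM per kb. Gpd1 at 8.24 and Lpin2 at 8.10 CPM per kb overlapped at the bottom of the order. In sh-Jmjd1a cells the order was another one: Gpat4 at 49.3 and Agpat1 at 47.4 CPM per kb led and overlapped, Dgat1 followed at 33.3, Agpat2 at 14.4 and Dgat2 at 13.3 overlapped, and Gpd1 was the lowest at 1.02. The order rests on the length used, which is from GENCODE M1 and not from the annotation used for counting, which is not given in the sources used here. Per kb of the union of all exons, a length tried after seeing the data, Gpat4 led in sh-Empty cells at 55.4, followed by Dgat1 at 47.9 and Agpat2 at 44.2 CPM per kb, and in sh-Jmjd1a cells Gpat4 at 49.3 was above Agpat1 at 34.6 CPM per kb with no overlap. Lpin2 was then the lowest in sh-Empty at 3.74 CPM per kb and Gpd1 in sh-Jmjd1a cells at 0.982.

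**Figure D1:**
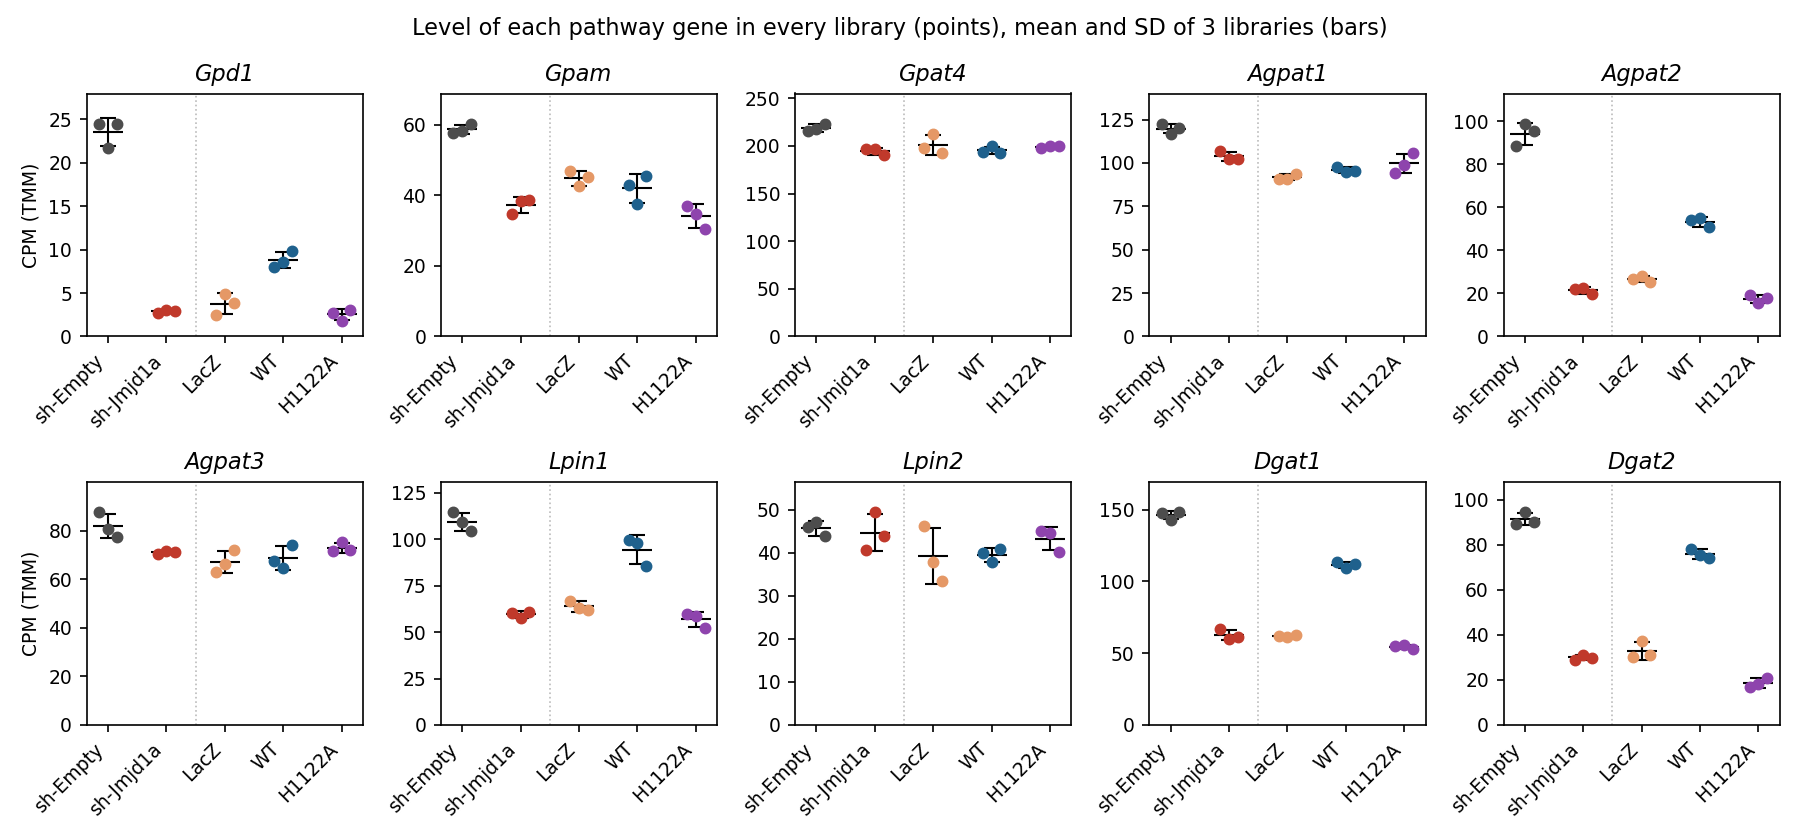
CPM of each of the 10 genes (y axis, linear from 0) in the 5 groups (x axis), with 1 point per library and black marks for the mean and SD of 3 libraries; the dotted line parts the knockdown set from the rescue set. Gpd1, Agpat2, Lpin1, Dgat1 and Dgat2 stand high in sh-Empty, low in sh-Jmjd1a and LacZ, higher again with JMJD1A(WT) and low with JMJD1A(H1122A), while Lpin2 overlaps between all groups set side by side in the comparisons.

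In JMJD1A-KD cells the RNA of every step of the pathway fell, but unevenly among isoforms. The sh-Jmjd1a libraries had 9 of the 10 enzymes lower than the sh-Empty libraries at an adjusted p under 0.05 and 0 higher, where 23.9% of the 12272 genes tested were lower and 22.3% higher. Gpd1 (8.09-fold), Agpat2 (4.41-fold), Dgat2 (3.04-fold) and Dgat1 (2.33-fold) fell the most, Gpat4, Agpat1 and Agpat3 by at most 1.15-fold, and Lpin2 did not pass the test. The median log2 change of the pathway was -0.77, beside -0.00315 over all genes tested. Control and knockdown libraries did not overlap at all for 9 of the 10 genes, nor for 53.0% of all genes. All comparisons of groups were run with the quasi-likelihood F test of edgeR, Benjamini-Hochberg adjusted over all genes.

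Gpd1, the cytosolic dehydrogenase that supplies glycerol phosphate, is placed at 99547946 to 99555436 of chromosome 15 in mm9, on the plus strand. It had 24.5, 21.7 and 24.5 CPM in the sh-Empty libraries and 2.70, 3.07 and 2.95 CPM in the sh-Jmjd1a libraries. All control libraries were far above all knockdown libraries, and this was the largest difference among the 10. The log2 fold change was -3.02 (SE 0.149, adjusted p = 6.65e-16 quasi-likelihood F test of edgeR, Benjamini-Hochberg adjusted). The counts behind it were the lowest of the pathway, 25 to 378 per library over all 15, and 384 bases of its exons overlap a transcript on the other strand, Gm16537, whose reads cannot be told apart because the strand setting of the counting is not given in the sources used here.

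The first acylation is shared by Gpam, the mitochondrial GPAT1 (chromosome 19, 55142142 to 55201824, minus strand), and Gpat4 of the endoplasmic reticulum, which GENCODE M1 lists as Agpat6 (chromosome 8, 24283418 to 24318925, minus strand). Gpam had 57.5, 58.1 and 60.2 CPM in sh-Empty and 34.6, 38.2 and 38.7 CPM in sh-Jmjd1a libraries, with no overlap and a log2 fold change of -0.66 (SE 0.069, adjusted p = 6.56e-09, quasi-likelihood F test of edgeR, Benjamini-Hochberg adjusted). Gpat4 had 215, 217 and 223 CPM in sh-Empty and 196, 197 and 190.4 CPM in sh-Jmjd1a libraries. Its groups were also apart, but by little: the log2 fold change was -0.17 (95% interval -0.26 to -0.08, adjusted p = 0.00156, same test).

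The second acylation was where the isoforms differed the most. Agpat2, the member of the family tied to human lipodystrophy (chromosome 2, 26448577 to 26459937, minus strand), had 88.5, 98.8 and 95.3 CPM in sh-Empty and 22.1, 22.7 and 19.5 CPM in sh-Jmjd1a libraries. Every control library was far above every knockdown library, and the log2 fold change was -2.14 (SE 0.074, adjusted p = 2.32e-19, quasi-likelihood F test of edgeR, Benjamini-Hochberg adjusted). Agpat1 (chromosome 17, 34741207 to 34750394, plus strand) had 123, 117 and 119.9 CPM against 107, 102 and 102 CPM, a log2 fold change of -0.21 (adjusted p = 0.00106, same test). Agpat3 (chromosome 10, 77731923 to 77815234, minus strand) had 87.5, 80.7 and 77.5 CPM against 70.2, 71.7 and 71.1 CPM, a log2 fold change of -0.20 (adjusted p = 0.00594, same test). The call on Agpat3 rested on the highest control library, since without sh-Empty replicate 1 its log2 fold change was -0.15 with an adjusted p of 0.0712. Exons of Agpat2 and Agpat1 overlap those of Egfl7 and Egfl8 on the other strand by 64 and 101 bases.

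At the phosphatase step, lipin 1 (Lpin1, chromosome 12, 16542475 to 16596576, minus strand), which also acts as a transcriptional coregulator, had 114, 109 and 104.5 CPM in sh-Empty and 60.1, 57.6 and 60.8 CPM in sh-Jmjd1a libraries. The groups were well apart, a 1.84-fold fall (adjusted p = 3.15e-13, quasi-likelihood F test of edgeR, Benjamini-Hochberg adjusted). Its relative lipin 2 (Lpin2, chromosome 17, 71531900 to 71599157, plus strand) had 46.1, 47.2 and 43.8 CPM against 40.7, 49.4 and 43.9 CPM. These groups overlapped fully, with a log2 difference of -0.03 (95% interval -0.18 to 0.13, adjusted p = 0.799, same test), so a change of the size seen in Lpin1 lay outside the interval.

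The last acylation fell in both enzymes. Dgat1 of the endoplasmic reticulum (chromosome 15, 76332445 to 76342381, minus strand) had 147, 143 and 148 CPM in sh-Empty and 66.8, 60.2 and 61.6 CPM in sh-Jmjd1a libraries, a log2 fold change of -1.22 (SE 0.054, adjusted p = 5.97e-17, quasi-likelihood F test of edgeR, Benjamini-Hochberg adjusted). Dgat2, which also acts at lipid droplets (chromosome 7, 106302173 to 106331223, minus strand), had 89.3, 94.3 and 90.2 CPM against 29.0, 31.2 and 29.8 CPM, a log2 fold change of -1.60 (SE 0.065, adjusted p = 9.20e-18, same test). For both genes the spread within a group was small beside the distance between groups.

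**Figure D2:**
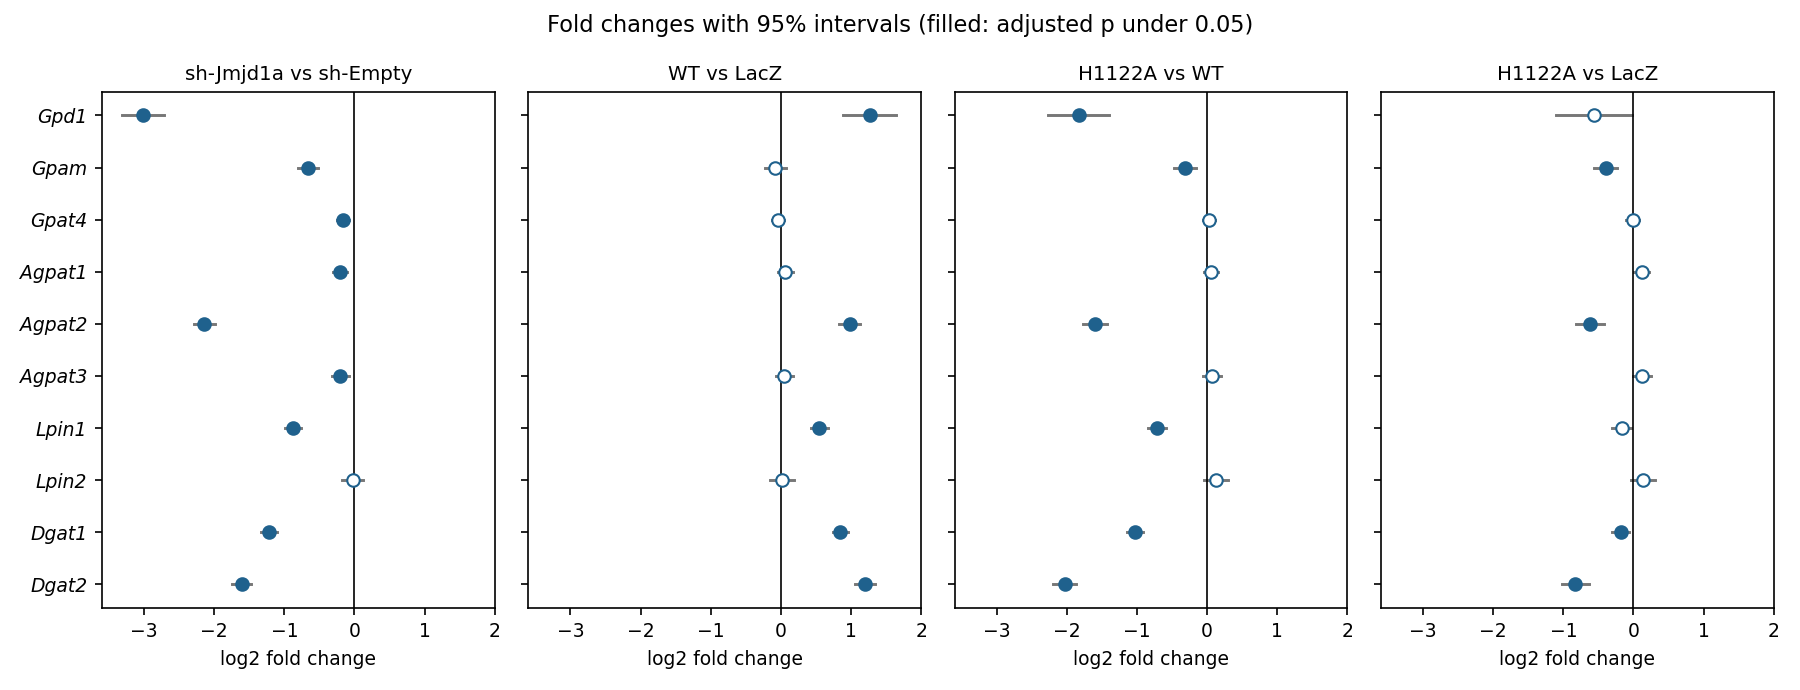
Log2 fold change (x axis) of the 10 genes (y axis, in pathway order) in 4 comparisons, with lines for 95% intervals; filled points passed an adjusted p of 0.05 and open points did not. In the first panel 9 of 10 points lie left of 0 and pass, in the second 5 lie right of 0 and pass, in the third 6 and in the last 4 lie left of 0 and pass.

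Expression of JMJD1A(WT) in JMJD1A-KD cells raised a subset of these enzymes. JMJD1A(WT) cells had 5 of the 10 above the LacZ level and 0 below it, where 4.98% of the 12557 genes tested were higher and 4.52% lower. The 5 were Gpd1 (2.41-fold), Dgat2 (2.30-fold), Agpat2 (1.98-fold), Dgat1 (1.80-fold) and Lpin1 (1.46-fold), at least 1 of the 10 at every step but the first acylation. The other 5, Gpam, Gpat4, Agpat1, Agpat3 and Lpin2, did not pass, with log2 fold changes of -0.08 to 0.06. The median over the 10 was 0.31, beside -0.000143 over all genes. Libraries of the groups did not overlap for 6 of the 10, the called 5 and Agpat1, and for 22.9% of all genes.

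Gpd1 had 2.47, 4.89 and 3.89 CPM with LacZ and 8.01, 8.52 and 9.80 CPM with JMJD1A(WT). The groups were apart although the LacZ libraries spread widely, with a log2 fold change of 1.27 (SE 0.187, adjusted p = 1.75e-06, quasi-likelihood F test of edgeR, Benjamini-Hochberg adjusted). Agpat2 had 26.9, 28.2 and 25.2 CPM with LacZ and 54.0, 55.3 and 50.7 CPM with JMJD1A(WT), a log2 fold change of 0.98 (SE 0.076, adjusted p = 7.96e-14, same test). Its relatives in the same step stayed close to the control: Agpat1 had 90.5 to 93.7 CPM with LacZ and 94.7 to 97.9 with JMJD1A(WT), a log2 difference of 0.06 (adjusted p = 0.545), while Agpat3 had 62.8 to 71.9 and 64.4 to 74.2 CPM, a log2 difference of 0.05 (adjusted p = 0.715, same test).

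Lpin1 had 67.0, 62.7 and 61.7 CPM with LacZ and 99.6, 98.1 and 85.5 CPM with JMJD1A(WT), and Lpin2 had 46.3, 37.8 and 33.5 against 40.0, 37.8 and 40.9 CPM. The first pair of groups was apart and the second overlapped, with a log2 difference for Lpin2 of 0.02 (95% interval -0.15 to 0.18, adjusted p = 0.945, quasi-likelihood F test of edgeR, Benjamini-Hochberg adjusted). Dgat1 had 61.9, 61.0 and 63.0 CPM with LacZ and 113, 109 and 112 CPM with JMJD1A(WT), a log2 fold change of 0.85 (SE 0.053, adjusted p = 5.80e-17, same test). Dgat2 had 30.0, 37.5 and 31.2 CPM with LacZ and 78.2, 75.2 and 74.0 CPM with JMJD1A(WT), a log2 fold change of 1.20 (SE 0.072, adjusted p = 1.72e-17, same test). Both DGAT genes were thus higher in 3 of 3 libraries than in any control library. Gpam, lower on knockdown, had 42.6 to 46.7 CPM with LacZ and 37.5 to 45.4 with JMJD1A(WT), and its log2 difference was -0.08 (95% interval -0.23 to 0.07, adjusted p = 0.634, same test).

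With the iron-coordination mutant the enzymes that JMJD1A(WT) raised were low again. JMJD1A(H1122A) cells had 6 of the 10 lower than JMJD1A(WT) cells and 0 higher, where 11.7% of the 12557 genes tested were lower and 12.1% higher. These were Dgat2 (4.09-fold), Gpd1 (3.56-fold), Agpat2 (3.04-fold), Dgat1 (2.04-fold), Lpin1 (1.64-fold) and Gpam (1.24-fold), while Gpat4, Agpat1, Agpat3 and Lpin2 had log2 fold changes of 0.03 to 0.12. The median over the 10 was -0.52, beside -0.00118 over all genes, and the groups did not overlap for 6 of the 10 and 37.1% of all genes. Since JMJD1A(WT) libraries enter this comparison and the one with LacZ, the 2 are not independent. The log2 difference of Kdm3a itself was 0.38 in favour of the mutant, and the adipocyte marker sum lower, and their parts in these values were not tested.

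Dgat2 had 16.7, 18.2 and 20.8 CPM with JMJD1A(H1122A), the lowest libraries of the rescue set, and differed from JMJD1A(WT) by -2.03 on the log2 scale (SE 0.083, adjusted p = 5.86e-24 quasi-likelihood F test of edgeR, Benjamini-Hochberg adjusted). Agpat2 had 19.2, 15.5 and 17.8 CPM and a log2 fold change of -1.60 (SE 0.085, adjusted p = 1.01e-19, same test). Gpd1 had 2.74, 1.82 and 3.08 CPM and a log2 fold change of -1.83 (SE 0.214, adjusted p = 3.51e-09, same test). For these genes each mutant library was below each JMJD1A(WT) library. Dgat1 had 54.8, 55.7 and 53.1 CPM, a log2 fold change of -1.03 (adjusted p = 1.08e-19, same test), and Lpin1 had 59.6, 58.5 and 52.3 CPM. Gpam had 37.0, 34.8 and 30.3 CPM and a log2 fold change of -0.32 (adjusted p = 0.00249, same test). The call on Gpam was lost without JMJD1A(WT) replicate 3, where its value was -0.24 with an adjusted p of 0.0620.

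Several enzymes were lower with the mutant than with no JMJD1A construct at all. Against LacZ, JMJD1A(H1122A) cells had 4 of the 10 lower and 0 higher, where 4.46% of the 12557 genes tested were lower and 4.78% higher. Dgat2 was 1.78-fold lower (log2 fold change -0.83, adjusted p = 1.77e-08), Agpat2 1.54-fold (-0.62, adjusted p = 1.18e-05), Gpam 1.31-fold (-0.39, adjusted p = 7.84e-04) and Dgat1 1.14-fold (-0.18, adjusted p = 0.0441, all quasi-likelihood F test of edgeR, Benjamini-Hochberg adjusted). The call on Dgat1 was lost without any 1 LacZ or JMJD1A(H1122A) library, without JMJD1A(WT) replicate 1, with no filter on low counts and with only these groups in the fit, at adjusted p values of 0.0509 to 0.146. Gpd1 (-0.56, 95% interval -1.11 to -0.02) and Lpin1 (-0.17) did not pass, with adjusted p of 0.215 and 0.126 from the same test, and the Lpin1 groups did not overlap. Lpin2 had 45, 44.5 and 40.2 CPM with the mutant and a log2 difference of 0.14 (adjusted p = 0.355), which passed without LacZ replicate 1 (0.28, adjusted p = 0.0277, same test). The groups did not overlap for 6 of the 10 and for 25.1% of all genes, and the median over the 10 was -0.17, beside 0.000524 over all genes. Summed adipocyte markers were lower as well, at 2503 to 2618 CPM with the mutant and 3214 to 3299 with LacZ. The fall was thus not particular to these enzymes, and the part of the markers in it was not tested.

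The rise with JMJD1A(WT) was smaller than the loss on knockdown for most of the pathway. A contrast over all 15 libraries, the log2 rise from LacZ to JMJD1A(WT) minus the log2 loss from sh-Empty to sh-Jmjd1a, was below 0 for 7 of the 10 at an adjusted p under 0.05 and did not pass for the other 3, where 15.7% of the 12758 genes tested were below 0 and 32.7% differed in either direction. It was -1.74 for Gpd1 (adjusted p = 1.78e-06) and -1.15 for Agpat2 (adjusted p = 8.74e-12), and it was -0.31 for Lpin1, -0.36 for Dgat1 and -0.39 for Dgat2, all quasi-likelihood F test of edgeR, Benjamini-Hochberg adjusted. On the log2 scale Agpat2 fell by 2.14 and rose by 0.98, and Dgat2 fell by 1.60 and rose by 1.20, a difference between genes that was not tested. Gpam, at -0.72 (adjusted p = 2.37e-07, same test), fell on knockdown and had no detectable rise. The contrast was -0.20 for Gpat4, and it did not pass for Agpat1 (-0.13), Agpat3 (-0.14) and Lpin2 (0.00091, 95% interval -0.24 to 0.24). The rescue lines went through a second infection and selection and had LacZ as their baseline, and an effect of these cannot be told apart from an incomplete rise. Changes of Kdm3a itself were also unlike in size, 1.34-fold lower on knockdown and 14.2-fold higher with JMJD1A(WT) than with LacZ. Rise and loss thus do not compare equal changes of Kdm3a, and the part of this was not tested.

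**Figure D3:**
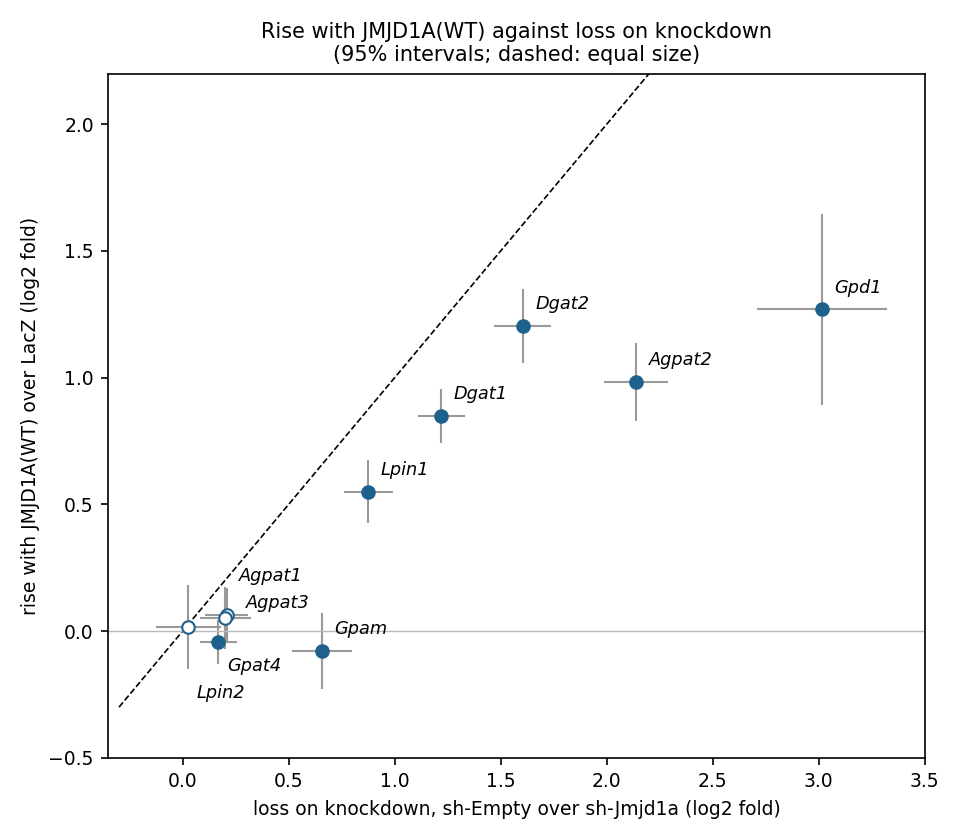
Log2 rise with JMJD1A(WT) over LacZ (y axis) against log2 loss on knockdown, sh-Empty over sh-Jmjd1a (x axis), with 95% intervals for each of the 10 genes; the dashed line marks equal size, and filled points are those whose rise and loss differed at an adjusted p under 0.05. Filled points lie below the line, from Gpat4 (contrast -0.20) to Gpd1 (contrast -1.74), and Agpat1, Agpat3 and Lpin2 are open.

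Ratios between isoforms of a step also differed between groups, though none could pass a test with 3 libraries a group. Ratios of the counts of 2 enzymes were taken within each library, so they do not depend on how libraries are scaled. The log2 ratio of Agpat2 to Agpat1 was -0.47 to -0.24 in sh-Empty and -2.39 to -2.17 in sh-Jmjd1a libraries, -1.89 to -1.68 with LacZ, -0.91 to -0.78 with JMJD1A(WT) and -2.68 to -2.30 with JMJD1A(H1122A). Knockdown cells thus had a ratio 1.93 lower on the log2 scale than their controls, and the ratio was 0.93 higher in JMJD1A(WT) than in LacZ cells, and was 1.67 lower with the mutant than with JMJD1A(WT). Agpat2 to Agpat3 gave differences of -1.93, 0.96, -1.70 and -0.74 in the 4 comparisons, in the order sh-Jmjd1a against sh-Empty, JMJD1A(WT) against LacZ, JMJD1A(H1122A) against JMJD1A(WT) and JMJD1A(H1122A) against LacZ. Lpin1 to Lpin2 gave -0.84, 0.54, -0.86 and -0.32, and Dgat2 to Dgat1 gave -0.39, 0.36, -1.002 and -0.64 in the same order. Gpam to Gpat4 gave -0.49, -0.06, -0.33 and -0.39. With 3 against 3 the two-sided exact permutation test cannot go below 0.1, which was its p for each ratio and comparison other than Gpam to Gpat4 in JMJD1A(WT) against LacZ (exact p = 0.6). No ratio passed, with an adjusted p of 0.105 at the lowest over the 20 exact tests, which share genes and libraries.

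On the per-kb scale the leading enzyme differed between groups at the second acylation and at no other step, counting the 10 genes alone. These shares leave out other isoforms, of which Agpat4 had 108 CPM in sh-Empty and 107 CPM in sh-Jmjd1a cells. Agpat2 was 48.04% ± 2.09 (SD, n = 3) of the summed Agpat1, Agpat2 and Agpat3 level in sh-Empty cells, ahead of Agpat1 at 41.6% ± 1.47. In sh-Jmjd1a cells Agpat2 made up 19.5% ± 1.17 and Agpat1 64.4% ± 1.04. The Agpat2 share was 25.3% with LacZ, 39.3% with JMJD1A(WT) and 16.9% with JMJD1A(H1122A), so Agpat1 led in all 3 rescue groups. Lpin1 was 70.6% ± 0.752 of the lipin level in sh-Empty and 57.2% ± 2.98 in sh-Jmjd1a cells, and 62.2%, 70.5% and 56.8% with LacZ, JMJD1A(WT) and JMJD1A(H1122A). Lpin1 stayed ahead of Lpin2 in every group. Dgat2 was 34.4% ± 1.08 and 28.6% ± 1.84 of the DGAT level in the knockdown set and 30.7%, 36.3% and 22.2% in the rescue set, with Dgat1 ahead throughout. Gpam was at most 14.5% of the Gpam and Gpat4 level. Per kb of the exon union the same enzymes led in each group, with Agpat2 at 46.6% and 18.6% in sh-Empty and sh-Jmjd1a cells, Lpin1 at 83.6% and 74.01%, and Dgat2 at 45.9% and 39.3%.

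**Figure D4:**
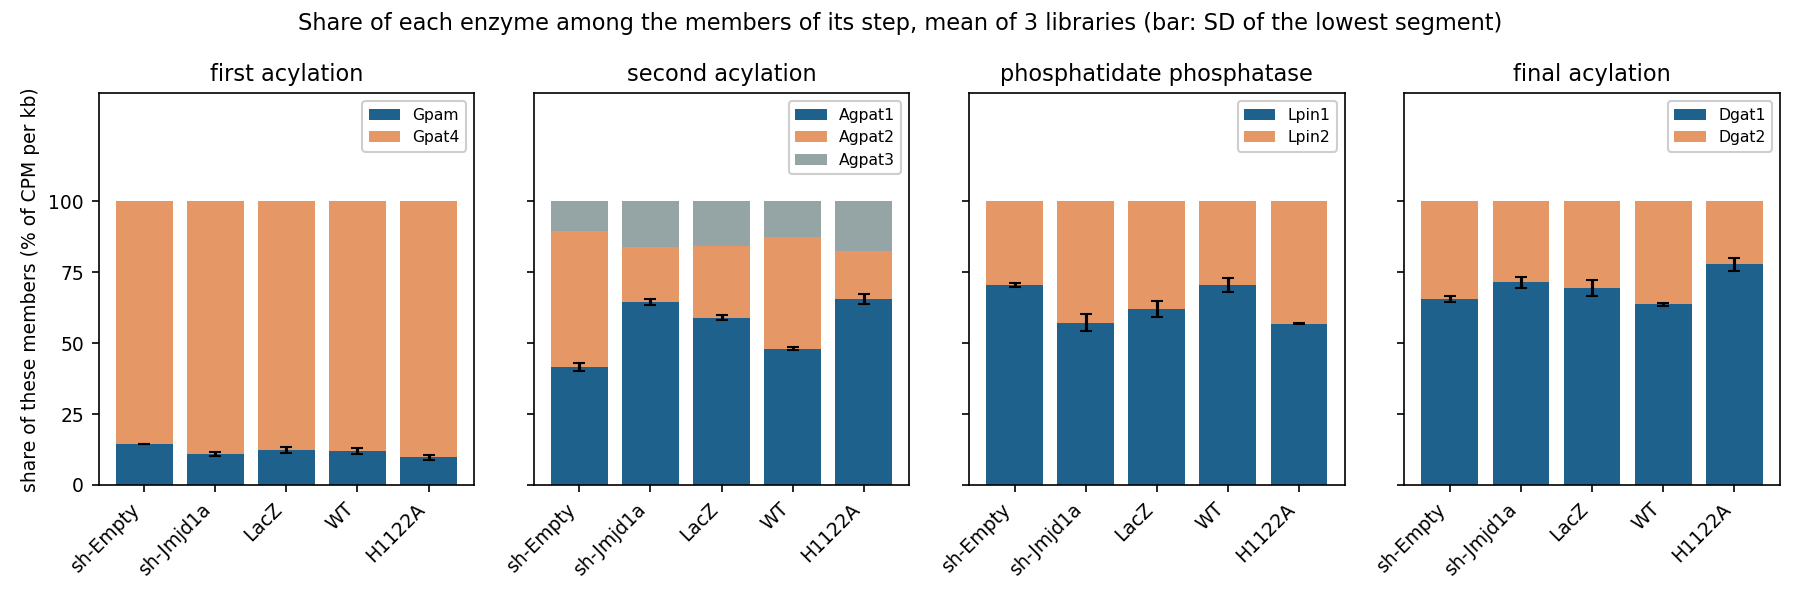
Share of each enzyme in the summed CPM per kb of the members at its step (y axis, percent) in the 5 groups (x axis), as stacked bars of means over 3 libraries; the error bar is the SD of the lowest segment. The Agpat2 segment is 48.04% in sh-Empty, 19.5% in sh-Jmjd1a, 39.3% with JMJD1A(WT) and 16.9% with JMJD1A(H1122A).

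Summed over the members of a step, levels differed between groups by unequal amounts. The DGAT sum was 118 ± 0.501 CPM per kb (SD, n = 3) in sh-Empty and 46.6 ± 1.42 in sh-Jmjd1a cells, 47.4 ± 1.44 with LacZ, 92.8 ± 1.85 with JMJD1A(WT) and 37.1 ± 0.606 with JMJD1A(H1122A). The AGPAT sum was 132 ± 1.59, 73.6 ± 1.88, 71.1 ± 0.833, 91.1 ± 1.11 and 69.5 ± 2.44 CPM per kb in the same order, and the lipin sum 27.5 ± 1.10, 18.5 ± 0.548, 18.3 ± 1.64, 23.8 ± 1.20 and 17.8 ± 1.17. The sum of Gpam and Gpat4 differed the least, with 64.8 ± 1.25 and 55.3 ± 0.800 CPM per kb in the knockdown set and between 56.0 and 58.2 in the rescue groups. It leaves out Gpat3, another enzyme of the first acylation, which was well above Gpam in CPM in sh-Empty cells and is described further on, so it does not give the level of the whole step. All 10 together were 350.3 ± 1.33 CPM per kb in sh-Empty, 195 ± 3.17 in sh-Jmjd1a, 196 ± 3.88 with LacZ, 267 ± 3.39 with JMJD1A(WT) and 181 ± 1.33 with JMJD1A(H1122A). These sums are RNA levels and not enzyme activities, and no test was made on them.

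**Figure D5:**
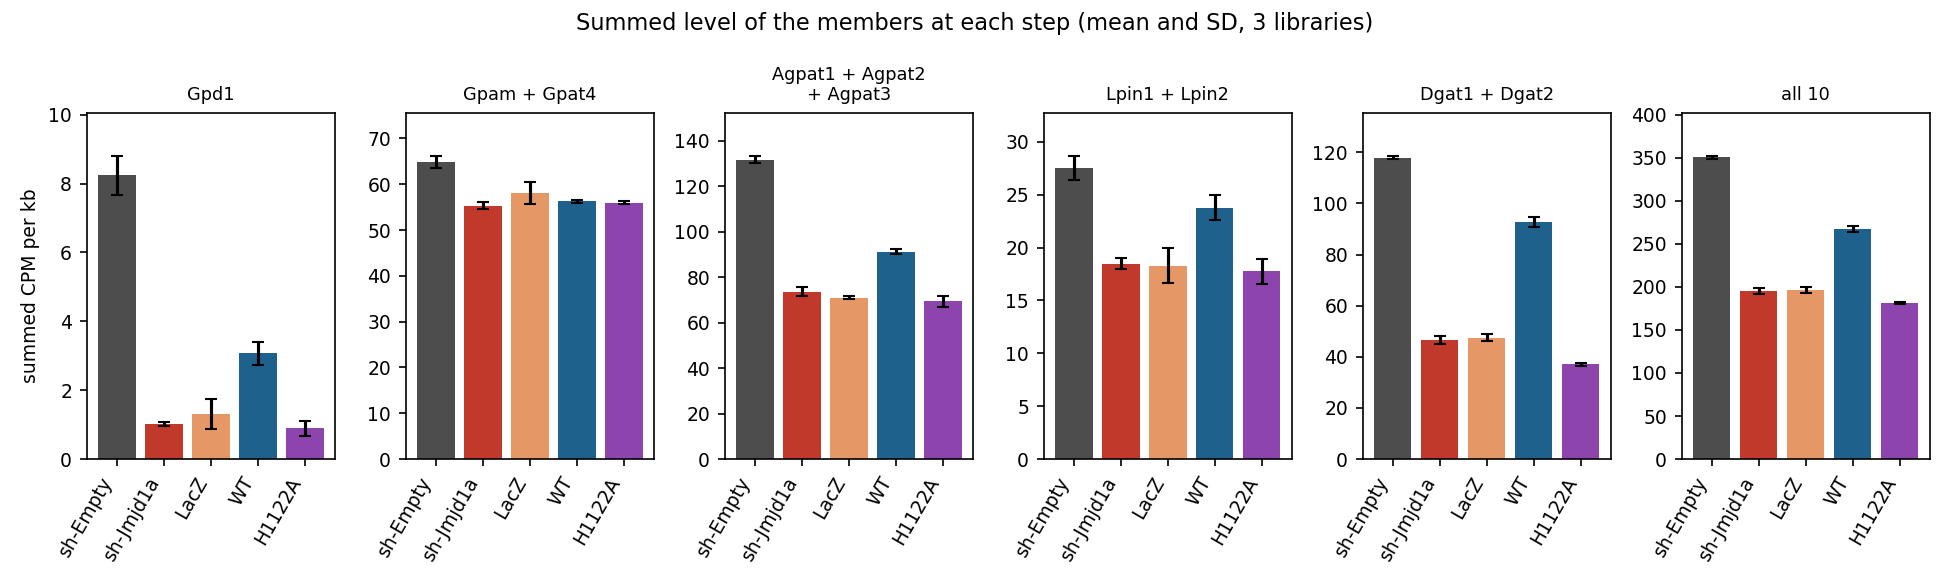
Summed CPM per kb of the members at each step and of all 10 (y axis, each panel on its own linear scale from 0) in the 5 groups (x axis), with bars for the mean and error bars for the SD of 3 libraries. Dgat1 and Dgat2 sum to 118 in sh-Empty, 46.6 in sh-Jmjd1a and 92.8 with JMJD1A(WT), and Gpam and Gpat4, without Gpat3, to between 55.3 and 64.8 in all groups.

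Among other isoforms of the same reactions Gpat3 changed the most. Of 8 further pathway genes 5 could be tested. Knockdown lowered 2 of the 5, where 23.9% of all genes were lower, 1 was higher in JMJD1A(WT) than in LacZ cells, where 4.98% were, and 1 was lower and 1 higher with JMJD1A(H1122A) than with JMJD1A(WT), where 11.7% and 12.1% were. Gpat3, the other GPAT of the endoplasmic reticulum and an enzyme of fat cells, had 109 ± 5.58 CPM in sh-Empty and 44.7 ± 0.817 in sh-Jmjd1a cells (log2 fold change -1.28), and 56.0 ± 0.529, 75.2 ± 5.24 and 32.5 ± 1.36 CPM with LacZ, JMJD1A(WT) and JMJD1A(H1122A) (SD, n = 3 each). Its log2 fold changes were 0.41 for JMJD1A(WT) over LacZ and -1.20 for the mutant against JMJD1A(WT), with adjusted p of 2.16e-16, 1.84e-06 and 1.38e-18 quasi-likelihood F test of edgeR, Benjamini-Hochberg adjusted. Gpat3 thus passed in the same 3 directions as Agpat2 and Dgat2, which neither Gpam nor Gpat4 did. Agpat5 was lower on knockdown (-0.32), and Agpat4 (-0.01) and Lclat1 (0.09) did not pass there. Gpat2, Mogat1 and Mogat2 had too few counts to be tested.

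Genes that supply or consume glycerol phosphate were called in both directions on knockdown. Of 6 tested, knockdown lowered 1 and raised 3, where 23.9% of all genes were lower and 22.3% higher. Between JMJD1A(WT) and LacZ 0 were called, where 4.98% of all genes were higher and 4.52% lower. Pck2, the mitochondrial phosphoenolpyruvate carboxykinase, was 66.5 ± 3.99 CPM in sh-Empty and 123 ± 4.88 in sh-Jmjd1a cells (SD, n = 3; log2 fold change 0.89, adjusted p = 1.87e-13). Gpd2, the mitochondrial dehydrogenase that consumes glycerol phosphate, was 52.9 ± 2.67 and 75.2 ± 4.87 CPM (SD, n = 3; 0.51, adjusted p = 1.80e-07, both quasi-likelihood F test of edgeR, Benjamini-Hochberg adjusted). Gpd1 and Gpd2, which together make up the glycerol phosphate shuttle, thus moved in opposite directions on knockdown. Tpi1, which interconverts the triose phosphates, was higher by 0.16, and Pgp, a phosphatase of glycerol phosphate, lower by 0.33 on the log2 scale. Pck1 and Aqp7, the glyceroneogenic carboxykinase and the glycerol channel of fat cells, had at most 0.0959 CPM on average and were not tested.

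Genes of the branches that lead from phosphatidate and diacylglycerol to phospholipids were called in both directions. Of 19 tested, 6 were lower and 5 higher in sh-Jmjd1a cells, near the 23.9% and 22.3% of all genes. Their median log2 fold change was -0.09. In JMJD1A(WT) against LacZ cells 2 were lower and 2 higher, where 4.52% and 4.98% of all genes were. Selenoi, the ethanolamine phosphotransferase, gave -0.41, 0.20 and -0.47 and Plpp1, a lipid phosphate phosphatase, -0.15, 0.16 and -0.22 in the knockdown, JMJD1A(WT) and mutant-against-wild-type comparisons, and Pcyt1b, an enzyme of phosphatidylcholine synthesis, gave the opposite signs, 0.84, -0.61 and 0.74. These 3 genes were called in all 3 comparisons, and the share of all genes called in all 3 was not counted. Chpt1, the cholinephosphotransferase that draws on the same diacylglycerol as DGAT, fell by 0.61 on the log2 scale on knockdown, and Pcyt2 by 0.23. Cds2, which takes phosphatidate towards phosphatidylinositol, and Cept1 rose by 0.36 and 0.32.

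In a list of 7 genes drawn up around partners of lipins and acyltransferases, Tmem120a alone was called on knockdown. Over all genes 23.9% were lower and 22.3% higher. The study does not name TMEM120A as such a partner. TMEM120A, a protein of the nuclear envelope needed for fat cell differentiation, had 129 ± 9.56 CPM in sh-Empty and 50.7 ± 2.97 in sh-Jmjd1a cells (SD, n = 3), and log2 fold changes of -1.35, 0.25 and -0.52 in the 3 comparisons above. The lipin phosphatase complex, Ctdnep1 (-0.08) with Cnep1r1 (0.04), and seipin, Bscl2 (-0.31, adjusted p = 0.154, quasi-likelihood F test of edgeR, Benjamini-Hochberg adjusted), did not pass on knockdown. Ldaf1, a partner of seipin at lipid droplets, was lower in JMJD1A(WT) than in LacZ cells (-0.42) and higher with the mutant than with JMJD1A(WT) (0.54).

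Of 11 adipocyte regulators tested, 7 were lower and 1 higher in sh-Jmjd1a cells, where 23.9% and 22.3% of all genes were. In JMJD1A(WT) against LacZ cells 5 were higher and 2 lower, where 4.98% and 4.52% of all genes were. With the mutant against JMJD1A(WT) 5 were lower and 1 higher, where 11.7% and 12.1% of all genes were. Pparg, the master regulator of fat cells, gave log2 fold changes of -0.89, 0.36 and -0.84, and Cebpa, which sustains it, -1.35, 0.81 and -1.86. Nr1h3, encoding LXRα, gave -1.23, 0.58 and -0.74, and Srebf1, a regulator of lipid synthesis, -0.66, 0.21 and -0.20. Cebpd, an early factor of differentiation, had the opposite signs, 0.59, -0.19 and 0.34. Rxra (-0.41) and Nr1h2 (-0.24) fell on knockdown and did not pass with JMJD1A(WT), Ppargc1a was lower with JMJD1A(WT) than with LacZ (-0.44), and Cebpb passed in none of these comparisons. Against LacZ the mutant had 2 regulators lower, Cebpa (-1.05) and Pparg (-0.48), and 0 higher, where 4.46% and 4.78% of all genes were. The shares of all genes called in each comparison stand above, and nothing particular to any of the 5 lists is read from its counts.

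For the 5 enzymes called in all of sh-Jmjd1a against sh-Empty, JMJD1A(WT) against LacZ and JMJD1A(H1122A) against JMJD1A(WT), the genes with the closest pattern were listed among 10099 with a mean of at least 5 CPM. The share of all genes called in each of these comparisons together was not counted, so nothing is read from the 5. Likeness was the root mean square difference of log2 fold changes over 3 comparisons, knockdown, JMJD1A(WT) against LacZ and JMJD1A(H1122A) against LacZ, the last 2 of which share the LacZ libraries. Closest to Lpin1 were Slc25a10, the mitochondrial dicarboxylate carrier (0.0173), Mfsd12 (0.0289) and Cbr2 (0.0434). Dgat1 was closest to Nr1h3 (0.157), the sphingosine kinase Sphk1 (0.166) and Ces1f (0.169), and Dgat2 to the imprinted RNA H19 (0.223), Igfbp4 (0.23) and the fatty acid binding protein Fabp4 (0.232). Agpat2 was closest to Reep6 (0.183), Trf, encoding transferrin (0.192), and Rdh12 (0.197). Gpd1 was closest to angiotensinogen, Agt (0.112), and next came Cidec, a lipid droplet protein (0.321), and Fam83a (0.379).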

How the data were processed

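Polyadenylated RNA of 15 libraries of 3T3-L1 cells was sequenced by the study. Per the submitters' processing notes and the study's methods, the authors used fastp for trimming, HISAT2 for alignment to mm9 and featureCounts for counting, and the deposited values are whole-number counts per Entrez Gene number and library without normalization. The labels name an NEBNext Ultra kit and the methods a directional NEBNext Ultra II kit, and the strand setting and annotation of the counting are not given in the sources used here. Such counts cannot separate isoforms, nor transcripts of an introduced Jmjd1a construct from those of the gene.

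Counts were joined by gene number. Of 26301 numbers, 24191 had a symbol in a RefSeq table of GRCm38.p6 (names only) and 22662 were placed on NCBIM37, the assembly of mm9, with GENCODE M1. Groups and replicate numbers came from the sample titles. Separate fits were made of the 6 libraries of the knockdown and the 9 of the rescue set in R 4.3.3 with edgeR 4.0.16, which uses limma 3.58.1: TMM size factors, filterByExpr with a minimum count of 10, robust bias-adjusted quasi-likelihood F tests, and Benjamini-Hochberg adjustment over all genes at 0.05. The 95% intervals used standard errors taken from the F statistic. The contrast of rise and loss used 1 fit of all 15 libraries. Ratios of counts had 0.5 added and were compared with two-sided exact permutation tests. Lengths were those of the longest protein-coding transcript. The fits were tested on simulated data. Replicates differed by more than sampling noise (chi-square per degree of freedom 2.06 to 5.22), so each library counted as 1.

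Members and gene lists were chosen with earlier results of these data known. Ldaf1 is Tmem159 in the RefSeq table. Genes named besides the members were Kdm3a, list genes (mean CPM of 5 or more) called in all of the knockdown, JMJD1A(WT) against LacZ and mutant against JMJD1A(WT) comparisons, the 4 others of each list with the smallest p on knockdown, and the 3 genes most like each member called in those comparisons. Alternatives were RLE size factors, the test of DESeq2 1.42.0, a filter that was off or asked for 10 counts in each library, a fit of all 15 libraries or of the compared groups only, the legacy method of edgeR 3, dispersions that are not robust, the replicate number as a block, no 0.5 count in the ratios, the length of the exon union (added after seeing the data), and each library left out in turn. Other assays of the study were not analysed here.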

Additional observations from a re-analysis of the deposited data

Results flagged for a closer look

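For 7 of the 10 enzymes the log2 rise with JMJD1A(WT) over LacZ differed in size from the log2 loss on knockdown, by a test of the difference itself (quasi-likelihood F test of edgeR, Benjamini-Hochberg adjusted p below 0.05 over all genes). Over all 12758 genes tested, 32.7% differed so in either direction, and rise minus loss was below 0 for 15.7%. Rise minus loss was -1.74 for Gpd1, -0.72 for Gpam, -0.20 for Gpat4, -1.15 for Agpat2, -0.31 for Lpin1, -0.36 for Dgat1 and -0.39 for Dgat2. Gpam and Gpat4 are in this group because they fell on knockdown and had no detectable rise, and the other 5 rose by less than they had fallen. The differences compare lines from separate infections, with changes of Kdm3a that were unlike in size.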

How the results depend on the processing

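The counts of enzymes called (9, 5, 6 and 4 in the comparisons in the order reported, and 7 for rise against loss) were the same with the replicate number as a block, and no ratio moved by more than its SD without the added 0.5 count. Per kb of the exon union, chosen after seeing the data, the order of levels changed as given with them, and the leading member of each step did not. Deviations of same-numbered libraries were at most weakly correlated, at -0.084 to 0.049 over 3 pairs in the knockdown set and -0.026 to 0.099 over 9 in the rescue set. Most values of the rescue set were above 0. The numbers were not taken to pair samples, and a weak shared deviation in the rescue set was not tested. The block gave 5425, 1393, 3283 and 1413 calls over all genes, where 5672, 1193, 2985 and 1160 were called without it. Leaving out 1 library gave 8 to 9, 5 to 5, 5 to 6, 3 to 4 and 7 to 7 enzymes. Over all genes the count between JMJD1A(H1122A) and LacZ ranged from 674 to 1256 with 1 library left out, with 764 without LacZ replicate 3 and 674 without JMJD1A(H1122A) replicate 1. The cause was not tested. Fold changes turned in sign only in values that passed no test: Lpin2, rise minus loss (0.00091), was -0.0023 with RLE size factors, -0.0030 with the legacy method and -0.10 to 0.14 with 1 library left out. With 1 library left out, Lpin2 was -0.10 to 0.032 on knockdown and -0.08 to 0.15 for JMJD1A(WT) against LacZ, Agpat3 -0.022 to 0.10 in the latter, and Gpat4 -0.041 to 0.031 for JMJD1A(H1122A) against LacZ. Precision was lowest for Gpd1, with 25 to 378 counts per library.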
